A study of Mus musculus with 12 samples.

Results

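Expression of 10 genes of the unfolded protein response was followed in mouse adipose tissue: Hspa5, Hsp90b1, Pdia4, Dnajb9, Sdf2l1, Xbp1, Atf6, Atf4, Ddit3 and Herpud1. They were chosen by name, as 10 of the 18193 genes that the annotation of the array names, and 23 probe sets read them. Each gene was read from its brightest probe set, by the mean of the 12 arrays, and its other probe sets are given beside it. All 10 were among the 13311 genes whose mean signal passed the filter on dim genes and were tested. Total RNA of adipose tissue from C57Bl/6 mice was hybridised to 12 single-colour Affymetrix arrays, 4 for each of 3 diets. Mice of the 14-day and 5-day groups received a high-fat diet (HFD) with 46% of calories from fat for those 14 or 5 days, and the control mice stayed on standard chow with 13% of calories from fat. All mice had eaten chow until 6 weeks of age, and the labels name no transgene or drug. The labels used here name no fat depot and do not say how old the chow mice were when tissue was taken. Nothing in them says that the 4 samples of a group came from separate animals or cages beyond calling them replicates, so every p-value below measures the spread between these samples.

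The endoplasmic reticulum (ER) folds secreted and membrane proteins, and adipocytes use it heavily for adipokines and for lipid enzymes. When unfolded proteins build up in the ER, they draw the chaperone BiP, encoded by Hspa5, away from the membrane sensors IRE1, PERK and ATF6. IRE1 splices the Xbp1 messenger RNA into the form that encodes an active transcription factor, ATF6 is cut in the Golgi to release its factor domain, and PERK slows translation while favouring that of ATF4, which in turn drives Ddit3 (CHOP). The factors together raise ER chaperones and the machinery that removes misfolded proteins. Obesity has been linked to signs of ER stress in fat and liver, and the comparison asks whether these transcripts differed in the first days of HFD. The arrays read total Xbp1 RNA and give no measure of its splicing, of ATF6 cleavage or of protein.

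ER stress acts on several of these genes through a promoter element, the ER stress response element (ERSE), which binds NF-Y and ATF6. It was searched as CCAAT followed, after 9 bases of any kind, by CCACG. The RefSeq windows from 250 bases before to 50 bases after the start site (build GRCm38.p6) were available for 9 of the 10 genes and were searched on both strands. ERSE was found in 2 of these 9 windows, those of Hspa5 and Hsp90b1, and in 0.119% of the 32851 windows of all genes. A near match, with 1 base unlike ERSE, was found in 4 of the 9 windows, those of Pdia4, Herpud1, Hsp90b1 and Ddit3. Near matches were found in 1.4% of all windows and are not marked below. ERSE-II, searched as ATTGG and CCACG with 1 base of any kind between them, where ATTGG is CCAAT on the other strand, was found in the window of Herpud1 and in 0.0365% of all windows. The short CCACG, which both elements hold, occurred in 7 of the 9 windows and in 32.8% of all windows. The element UPRE (TGACGTGG), bound by XBP1 and holding CCACG on its other strand, was found in 0 of the 9 windows and in 0.676% of all. The windows with ERSE or ERSE-II, and that of Sdf2l1, whose signal followed Hspa5 across arrays, are printed 5′ to 3′ along the gene's strand, with the matches in capitals. They lie at chr2:34771840-34772139 on the plus strand for Hspa5, at chr10:86705395-86705694 on the minus strand for Hsp90b1, at chr8:94386179-94386478 on the plus strand for Herpud1 and at chr16:17132334-17132633 on the minus strand for Sdf2l1.
Hspa5: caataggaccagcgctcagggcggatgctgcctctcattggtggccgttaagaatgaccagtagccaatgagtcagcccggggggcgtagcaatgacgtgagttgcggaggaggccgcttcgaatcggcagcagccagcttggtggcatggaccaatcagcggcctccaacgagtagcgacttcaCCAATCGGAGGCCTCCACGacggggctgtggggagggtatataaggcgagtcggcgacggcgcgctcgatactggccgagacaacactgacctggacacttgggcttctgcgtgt
Hsp90b1: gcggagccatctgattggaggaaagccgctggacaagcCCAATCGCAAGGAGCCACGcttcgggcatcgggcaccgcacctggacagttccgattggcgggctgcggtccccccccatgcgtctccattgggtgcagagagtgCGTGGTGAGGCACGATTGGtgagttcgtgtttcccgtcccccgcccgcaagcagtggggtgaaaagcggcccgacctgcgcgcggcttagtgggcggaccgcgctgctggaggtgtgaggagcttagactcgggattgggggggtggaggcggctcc
Herpud1: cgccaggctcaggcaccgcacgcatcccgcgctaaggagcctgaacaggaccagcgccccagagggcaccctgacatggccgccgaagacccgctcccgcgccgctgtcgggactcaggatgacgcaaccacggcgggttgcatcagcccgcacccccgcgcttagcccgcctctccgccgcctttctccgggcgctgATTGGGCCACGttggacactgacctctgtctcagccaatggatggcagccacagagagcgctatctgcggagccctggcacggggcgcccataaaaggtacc
Sdf2l1: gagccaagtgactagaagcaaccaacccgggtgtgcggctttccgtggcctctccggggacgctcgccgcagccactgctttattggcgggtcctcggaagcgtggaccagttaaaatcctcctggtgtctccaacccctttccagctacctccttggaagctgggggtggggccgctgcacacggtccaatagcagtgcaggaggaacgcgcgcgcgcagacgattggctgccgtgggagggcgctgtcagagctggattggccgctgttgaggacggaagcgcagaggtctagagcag
The Hspa5 match began 65 bases before the start site, and the Hsp90b1 window held 2 matches, which began 212 and 107 bases before it, the second on the opposite strand and so printed as its reverse complement. The ERSE-II match of Herpud1 began 52 bases before its start site. The Sdf2l1 window held neither ERSE nor ERSE-II. A match describes the letters of the window and is no measure of binding.

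Arrays of the same diet group differed in transcripts of another tissue, the epididymis. Of 19 epididymis markers, 9 were on the array, and Spink8, Adam7 and Spint4 were higher in 14-day array 4 and 5-day arrays 1 to 3 than in all 8 other arrays. Spink8 stood at 14.28 to 14.96 log2 units in these 4 arrays and at 6.85 to 8.87 in the others. The mean of the 9 markers ran from 7.07 to 10.26 in 14-day arrays, from 6.97 to 9.71 in 5-day arrays and from 6.99 to 7.61 in chow arrays. Gpx5, Lcn8, Lcn9, Rnase10 and Adam28 stayed between 6.45 and 8.52 in all 12 arrays. Lcn5 stood at 14.54 in 14-day array 4 and 8.44, 9.13 and 11.05 in 5-day arrays 1 to 3. It stood at 8.78 in chow array 3, above 5-day array 1, and at 6.04 to 6.36 in the remaining arrays. Smooth muscle markers averaged 13.40 in 14-day array 4 and 11.68, 11.67 and 9.68 in 5-day arrays 1 to 3, against 9.29 to 10.62 in the 8 arrays without epididymal transcripts. Markers of exocrine pancreas, which is rich in ER, averaged 7.96 to 8.15 in all arrays, and those of plasma and B cells 8.09 to 8.87. The 8 measured adipocyte markers averaged 13.58 in 14-day array 4 and 13.91 to 14.11 in the other arrays. The excess of the 3′ over the 5′ probe set of a control gene widens as RNA degrades. For pyruvate carboxylase it was 2.83 in 5-day array 4, against 1.59 to 2.18 in the other arrays. For Gapdh and actin that array stood at 0.272 and 0.504, below 14-day array 2 at 0.276 and 0.547. Its transferrin receptor excess of 1.546 was the lowest of the 12 arrays, so the controls differed. What part any of these had in the results was not tested beyond the values without the arrays. The main results are given with and without the 4 arrays with epididymal transcripts. Leaving them out keeps 14-day arrays 1 to 3 and only 5-day array 4, whose spread is then taken from the other groups. That 5-day array had the highest mean of liver markers of all 12, at 13.04. The other 5-day arrays stood at 9.51 to 11.52 and chow at 8.52 to 12.05. Each 5-day value without the 4 arrays thus comes from an array with liver transcripts. Liver markers averaged 12.64, 9.30 and 11.52 in 14-day arrays 1 to 3, which are kept, and 9.22 in 14-day array 4. The part of liver transcripts in either comparison was not tested.

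None of the 10 genes passed the test in any diet comparison (limma, Benjamini-Hochberg adjusted p under 0.05), nor did any of the 13311 genes, so the share called was 0% in each of the 3 comparisons. At an unadjusted p under 0.05, limma gave 0 of 10 genes at 14 days against chow, beside 7.97% of all genes. It gave 1 of 10, Xbp1, at 5 days against chow, beside 10.1% of all genes, and 0 of 10 at 14 against 5 days, beside 2.55%. Log2 differences ran from −0.10 to 0.26 at 14 days against chow, with 6 of 10 genes higher and a median of 0.05, beside a median of 0.02 over all genes. They ran from −0.25 to 0.29 at 5 days against chow, with 5 of 10 higher and a median of 0.03, beside 0.00 over all genes (−0.0015 before rounding). Between 14 and 5 days they ran from −0.10 to 0.14, with 5 of 10 higher. Groups that did not overlap were seen in 1 gene at 14 days, Atf6, whose arrays all lay above chow (2.37% of all genes), and in 1 gene at 5 days, Xbp1, whose arrays all lay below chow (4.77% of all genes). No other of the 10 genes did so: 0 lay below chow at 14 days (2.26% of all genes), 0 lay above it at 5 days (6.49%), and 0 lay above (0.646%) or below (0.278%) when the 14-day arrays were set against the 5-day arrays.

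**Figure D1:**
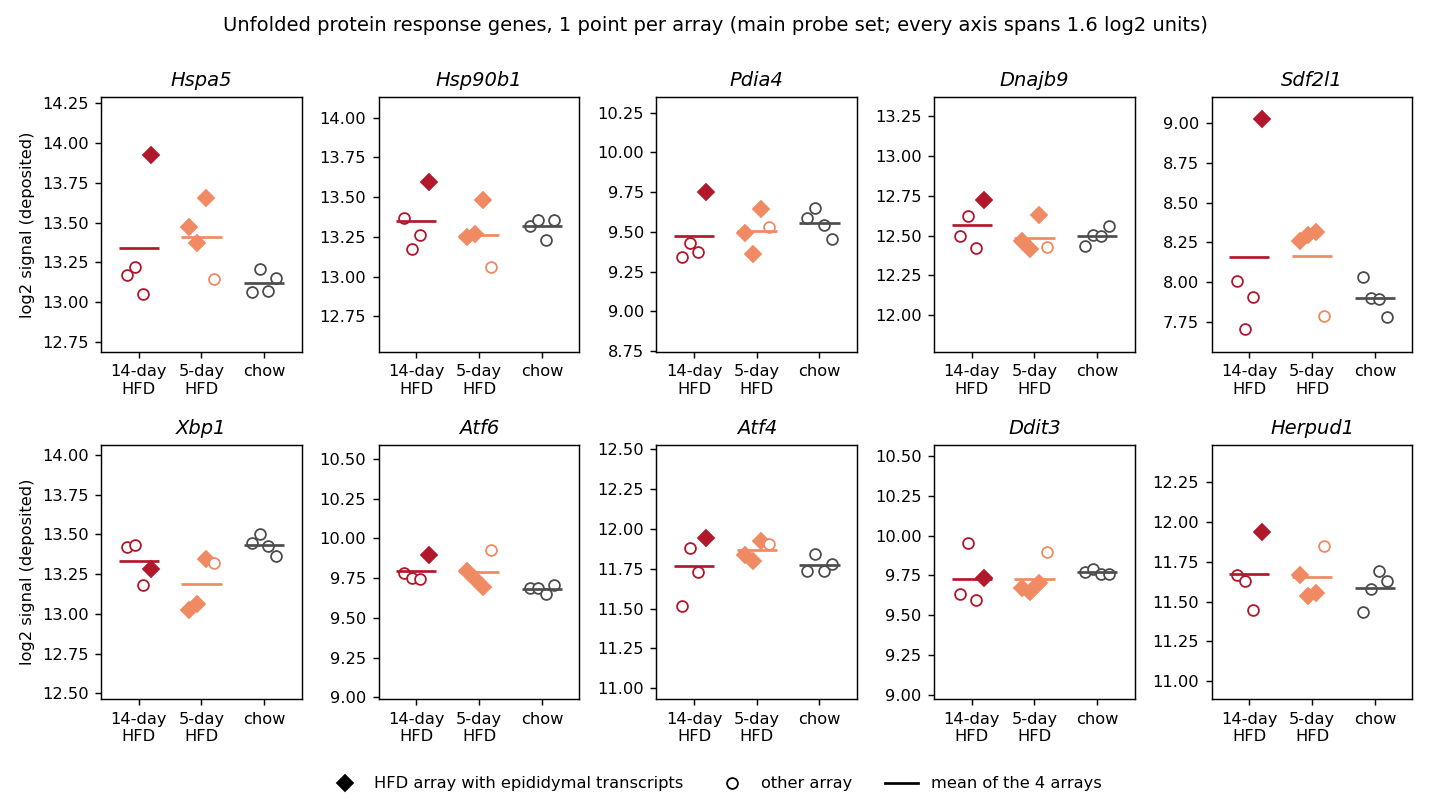
Deposited log2 signal (vertical axis) of the 10 unfolded protein response genes in 14-day HFD, 5-day HFD and chow arrays, 1 point per array with the mean of 4 as a line; filled diamonds are the 4 HFD arrays with epididymal transcripts. The diamonds stand above the other HFD arrays for Hspa5 and Sdf2l1, and the 5-day arrays of Xbp1 lie below those of chow.

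Among the ER chaperones, Hspa5, which encodes BiP, was high in the HFD arrays that held epididymal transcripts. Its main probe set (chromosome 2, 34772090 to 34776529) stood at 13.17, 13.22, 13.05 and 13.92 in 14-day arrays 1 to 4. In 5-day arrays 1 to 4 it stood at 13.47, 13.37, 13.65 and 13.14, against 13.06, 13.21, 13.07 and 13.15 in chow. The 4 HFD arrays without a high Spink8 signal lay between 13.05 and 13.22, close to the chow range, while 14-day array 4 and 5-day arrays 1 to 3 all lay above it. Group means were 13.34 ± 0.39 at 14 days, 13.41 ± 0.21 at 5 days and 13.12 ± 0.07 on chow (SD, n = 4). The difference was 0.22 ± 0.17 (SE) at 14 days, a 1.17-fold level with a 95% interval of −0.15 to 0.59 (limma, adjusted p = 0.785). It was 0.29 ± 0.17 at 5 days, a 1.22-fold level with an interval of −0.08 to 0.66 (adjusted p = 0.590). Without the 4 arrays the differences were 0.03 ± 0.06 at 14 days (adjusted p = 0.854) and 0.02 ± 0.09 at 5 days (adjusted p = 0.902), and without 14-day array 4 alone the 14-day difference was 0.03. A second probe set of Hspa5 showed the same arrays high, with 13.41 in 14-day array 4 and 12.79 to 13.06 in 5-day arrays 1 to 3, against 12.32 to 12.51 in chow. The third probe set, the dimmest, did not separate them: it stood at 11.40 in 14-day array 4 and 11.31 to 11.42 in 5-day arrays 1 to 3, against 11.12 to 11.45 in chow.

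Sdf2l1, an ER protein that works with BiP and its J-domain partners, was high in the same arrays. Its single probe set (chromosome 16, 17130138 to 17132383) stood at 8.01, 7.70, 7.90 and 9.02 in 14-day arrays 1 to 4. The 5-day arrays 1 to 4 gave 8.26, 8.30, 8.32 and 7.79, against 8.03, 7.90, 7.89 and 7.78 in chow. The 4 arrays with epididymal transcripts lay above all other arrays, and 5-day array 4 lay inside the chow range. The difference was 0.26 ± 0.24 at 14 days (95% interval −0.27 to 0.79, limma adjusted p = 0.818) and 0.27 ± 0.24 at 5 days (−0.26 to 0.79, adjusted p = 0.759). Without the 4 arrays the sign turned in both, to −0.03 ± 0.09 at 14 days and −0.11 ± 0.13 at 5 days (adjusted p = 0.898 and 0.624). Hspa5 and Sdf2l1 were the 2 of the 10 genes for which all 4 HFD arrays with epididymal transcripts exceeded the other 4 HFD arrays, an order seen in 6.67% of all genes. A bulk sample cannot tell fewer cells of a type from less RNA per cell.

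**Figure D2:**
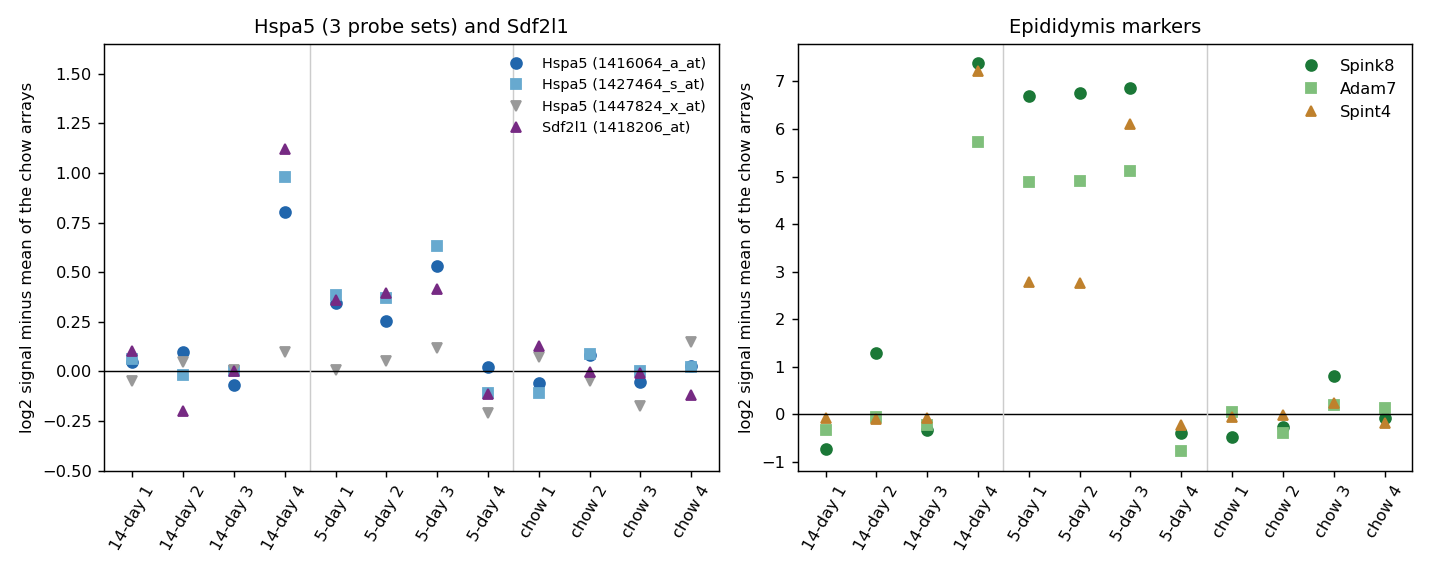
Log2 signal minus the mean of the 4 chow arrays (vertical axis) in each of the 12 arrays, for the 3 probe sets of Hspa5 and for Sdf2l1 (left) and for the epididymis markers Spink8, Adam7 and Spint4 (right). The first 2 probe sets of Hspa5, Sdf2l1 and the 3 markers are high in 14-day array 4 and 5-day arrays 1 to 3, and the third Hspa5 probe set is not.

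The other chaperones differed less between arrays. Hsp90b1, which encodes the ER chaperone GRP94, stood at 13.37, 13.18, 13.26 and 13.59 in 14-day arrays 1 to 4, while its 5-day arrays 1 to 4 gave 13.25, 13.27, 13.48 and 13.06, against 13.32, 13.36, 13.23 and 13.36 in chow. The chow arrays lay inside the range of both HFD groups, and 5-day array 4 was the lowest of the 12. Its difference was 0.03 ± 0.10 at 14 days and −0.05 ± 0.10 at 5 days (limma, adjusted p = 0.944 and 0.898), with 95% intervals of −0.18 to 0.25 and −0.27 to 0.17. Its second probe set gave −0.08 and −0.11. A fit without the 4 arrays with epididymal transcripts gave a 14-day difference of −0.05 ± 0.06. The remaining 5-day array differed from chow by −0.25 ± 0.09. This is the array with the widest pyruvate carboxylase excess and the smallest transferrin receptor excess. In that fit 0.819% of all genes were called at 5 days and none of the 10.

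Pdia4, a protein disulphide isomerase of the ER, stood at 9.34, 9.43, 9.37 and 9.75 in 14-day arrays 1 to 4, at 9.36 to 9.65 in 5-day arrays and at 9.46 to 9.65 in chow. In 14-day arrays 1 to 3 it lay below every chow array, and in 14-day array 4 above every one. Its 14-day difference of −0.08 ± 0.10 (limma, adjusted p = 0.851) was −0.18 ± 0.06 without the 4 arrays (adjusted p = 0.391), and the dimmer second probe set gave 0.06 with all arrays. Dnajb9, an ER J-domain protein that holds IRE1 in check, ranged from 12.42 to 12.73 at 14 days, from 12.42 to 12.63 at 5 days and from 12.43 to 12.56 on chow. The ranges overlapped, and the differences were 0.07 ± 0.07 and −0.01 ± 0.07 (adjusted p = 0.843 and 0.965), or 0.02 ± 0.06 and −0.07 ± 0.09 without the 4 arrays.

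Xbp1, the transcription factor gene of the IRE1 branch, had the smallest p of the 10 genes at 5 days. Its main probe set (chromosome 11, 5520641 to 5525993) stood at 13.02, 13.06, 13.35 and 13.32 in 5-day arrays 1 to 4, against 13.45, 13.50, 13.42 and 13.37 in chow. All 4 of the 5-day arrays lay below all 4 chow arrays, but arrays 3 and 4 by only a little. The 14-day arrays, at 13.42, 13.43, 13.18 and 13.28, overlapped both groups. At 5 days the difference was −0.25 ± 0.09, a 0.843-fold level with a 95% interval of −0.43 to −0.06 (limma, adjusted p = 0.384). It was −0.10 ± 0.09 at 14 days against chow (adjusted p = 0.799) and 0.14 ± 0.09 at 14 against 5 days (adjusted p = 0.999). The other 3 probe sets of Xbp1 gave −0.29, −0.20 and −0.27 at 5 days, all lower, as the same mice read by other probes and not as further replicates. As single arrays were left out the 5-day difference ran from −0.30 to −0.19. In 5-day array 4, which lacked epididymal transcripts, Xbp1 was 0.11 ± 0.10 below chow (adjusted p = 0.514 in the fit without the 4 arrays). Plasma cells rely on Xbp1. The plasma and B cell markers averaged 8.365, 8.363, 8.511 and 8.154 in 5-day arrays 1 to 4, against 8.40 to 8.57 in chow. By this mean only 5-day array 3 reached the chow range, and 5 of the 11 markers were dimmer than the filter. The markers differed in direction. Ighm stood at 12.62 to 12.97 in the 5-day arrays, above the 12.13 to 12.57 of chow. Irf4 stood at 9.25 to 10.16 in the 5-day arrays, against 10.03 to 10.92 in chow. What part these cells had in the Xbp1 signal was not tested.

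Atf6, the sensor that moves from the ER to the Golgi and is cut there, stood at 9.79, 9.75, 9.75 and 9.90 in 14-day arrays 1 to 4. Its signals were 9.80, 9.74, 9.70 and 9.93 in 5-day arrays 1 to 4, against 9.69, 9.69, 9.65 and 9.71 in chow. All 14-day arrays lay above the chow arrays, and 3 of the 4 5-day arrays did. The spread on chow was narrow, with an SD of 0.02. The differences were 0.11 ± 0.06 at 14 days (1.08-fold, 95% interval −0.02 to 0.24) and 0.11 ± 0.06 at 5 days (1.08-fold, −0.03 to 0.24), with limma adjusted p = 0.688 and 0.573. Atf6 stood above chow without the 4 arrays, at 0.08 ± 0.04 at 14 days and 0.24 ± 0.06 in the single 5-day array (adjusted p = 0.497 and 0.0923). Its 2 dimmer probe sets were higher too, by 0.08 and 0.11 at 14 days and by 0.03 and 0.07 at 5 days.

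Atf4, the factor of the PERK branch, stood at 11.52, 11.88, 11.73 and 11.95 in 14-day arrays 1 to 4, with 11.84, 11.80, 11.93 and 11.90 in 5-day arrays 1 to 4, against 11.74, 11.84, 11.73 and 11.78 in chow. The groups overlapped, with differences of 0.00 ± 0.08 at 14 days (−0.005 before rounding) and 0.09 ± 0.08 at 5 days (limma, adjusted p = 0.990 and 0.764), or −0.06 ± 0.09 and 0.13 ± 0.13 without the 4 arrays. A second probe set of Atf4 gave 0.13 at 14 days and 0.09 at 5 days, and another, dimmer than the filter, −0.07 and −0.20. PERK acts on ATF4 chiefly through its translation, which these arrays do not read. Ddit3, the target of ATF4 that encodes the apoptosis factor CHOP, ranged from 9.59 to 9.95 at 14 days and from 9.65 to 9.90 at 5 days, against 9.76 to 9.79 on chow. Its chow arrays fell inside both HFD ranges, and the differences were −0.04 ± 0.08 in both comparisons (adjusted p = 0.913 and 0.901), with 95% intervals that both run from −0.22 to 0.14. Its second probe set gave −0.04 in both as well, and the main one −0.04 ± 0.09 and 0.13 ± 0.13 without the 4 arrays.

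Herpud1, an ER membrane protein that helps to pass misfolded proteins to the proteasome, stood at 11.67, 11.63, 11.45 and 11.94 in 14-day arrays 1 to 4. On 5-day arrays 1 to 4 it stood at 11.67, 11.54, 11.56 and 11.85, against 11.44, 11.58, 11.70 and 11.63 in chow. The highest arrays were 14-day array 4 and 5-day array 4, which differed in epididymal transcripts. Its differences were 0.09 ± 0.11 at 14 days and 0.07 ± 0.11 at 5 days (limma, adjusted p = 0.860 and 0.868). They were, without the 4 arrays with epididymal transcripts, −0.0022 ± 0.08 and 0.26 ± 0.12 (adjusted p = 0.993 and 0.228), and without 5-day array 4 the 5-day difference was 0.0012. A second probe set of nearly the same mean signal gave 0.01 at 14 days and −0.06 at 5 days, so the probe sets differed in sign at 5 days.

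**Figure D3:**
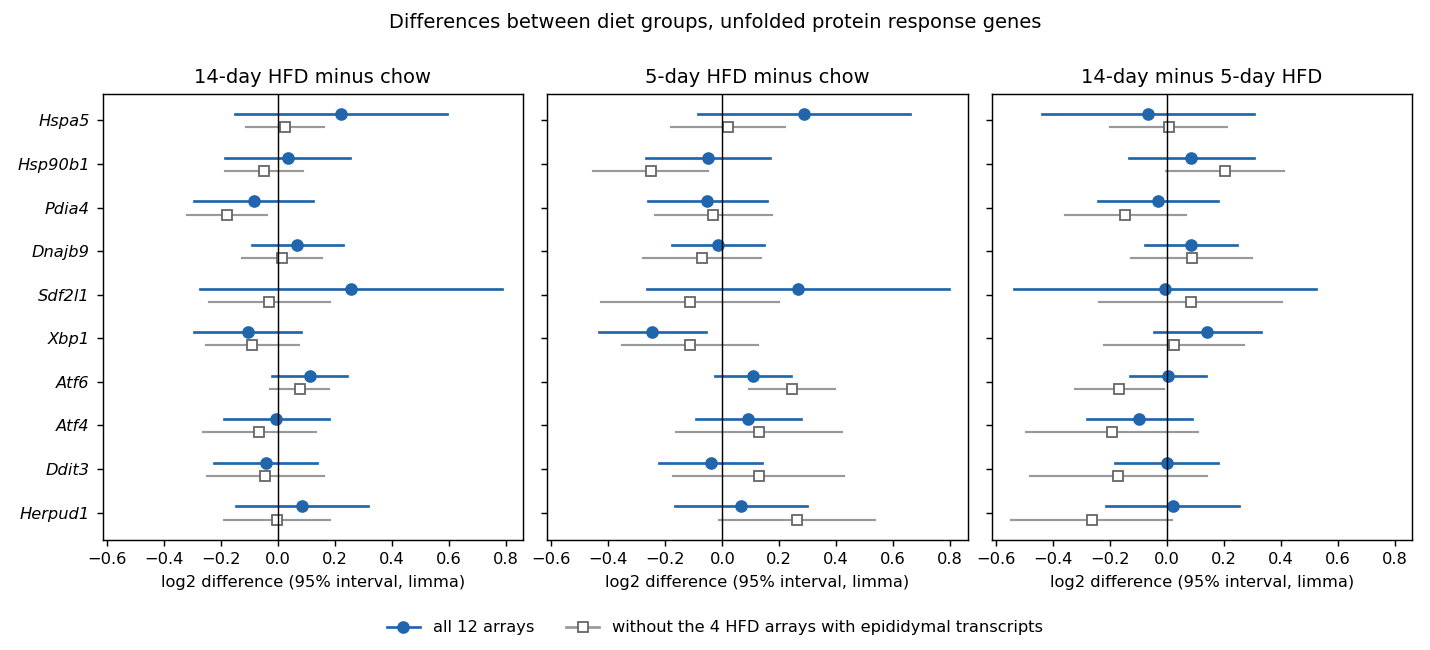
Log2 differences with 95% limma intervals (horizontal axis) of the 10 genes in 3 comparisons, from all 12 arrays (filled circles) and without the 4 HFD arrays with epididymal transcripts (open squares). Hspa5 and Sdf2l1 move from 0.22 and 0.26 at 14 days to 0.03 and −0.03 without these arrays, and Xbp1 at 5 days moves from −0.25 to −0.11.

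Between 14 and 5 days of HFD, Xbp1 differed most, by 0.14 ± 0.09, and Ddit3 least (−0.0015). All 10 genes had adjusted p = 0.999 (limma). The 95% interval of Hspa5 ran from −0.44 to 0.30 and that of Sdf2l1 from −0.54 to 0.52.

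Within the 14-day group many of the genes were highest in the same array. In 14-day array 4, which had the highest Spink8, 8 of the 10 genes were the highest of the 4 arrays, where 29% of all genes were. The median of the 10 genes stood 0.28 above the mean of 14-day arrays 1 to 3, beside −0.07 over all genes, with Sdf2l1 at 1.15 and Hspa5 at 0.78 and only Xbp1 below (−0.06). In the 5-day group, 3 of the 10 genes, Hspa5, Hsp90b1 and Sdf2l1, had arrays 1 to 3 all above array 4, where 27.7% of all genes did. This share is near that of all genes. Over the 12 arrays Hspa5 had a Pearson r of 0.90 with Sdf2l1, 0.70 with Dnajb9 and 0.69 with Hsp90b1, and of −0.33 with Xbp1. These are descriptions of arrays that fall into those with and those without epididymal transcripts. The 5 other genes most like Hspa5 by Pearson r over the 12 arrays were Slc35e2, Carmil1, Galnt11, Erbb2 and Bloc1s2, with r of 0.988 to 0.990. Erbb2, a growth factor receptor gene, stood at 10.56 in 14-day array 4 and 9.61 to 9.96 in 5-day arrays 1 to 3, against 8.96 to 9.14 in chow.

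Further ER chaperones and folding enzymes, 23 genes outside the 10, were higher in 20 at 14 days against chow and in 19 at 5 days. Of all genes, 55.2% and 49.5% were higher. The medians were 0.12 and 0.15, beside 0.02 and 0.00 (−0.0015) over all genes. All arrays of the HFD group lay above chow in 0 of the 23 at 14 days (2.37% of all genes) and 6 at 5 days (6.49%). None of the 23 was called by limma. An unadjusted p under 0.05 was reached by 0 at 14 days and 2 at 5 days, beside 7.97% and 10.1% of all genes. The 4 HFD arrays with epididymal transcripts exceeded the other 4 in 10 of the 23 genes, against 6.67% of all genes. Dnajc10, an ER disulphide reductase, stood at 13.78 in 14-day array 4 and 12.57 to 13.15 in 5-day arrays 1 to 3, against 10.62 to 10.80 in chow. Manf, a secreted ER stress protein, stood at 12.22 in 14-day array 4 and 11.35 to 11.62 in 5-day arrays 1 to 3, against 10.52 to 10.84 in chow. Without the 4 arrays Dnajc10 differed from chow by −0.03 at 14 days and −0.06 at 5 days, and Manf by 0.04 and 0.05. In that fit 11 of the 23 genes were higher at 14 days and 16 at 5 days, beside 56.5% and 58% of all genes. The medians were −0.01 and 0.09, beside 0.02 and 0.05 over all genes.

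Genes of translocation into the ER and of the early secretory pathway were higher in 23 of 27 in both comparisons with chow, with medians of 0.13. Over all genes 55.2% were higher at 14 days and 49.5% at 5 days. Limma called none of the 27. Unadjusted p-values were under 0.05 in 5 genes at 14 days and 4 at 5 days, all higher, where 3.67% and 4.43% of all genes were. Surf4, a cargo receptor of the ER, stood at 12.20, 12.15, 12.29 and 12.13 in 5-day arrays 1 to 4, against 11.90 to 12.04 in chow. All 5-day arrays of Surf4 lay above the chow arrays, as in 11 of the 27 genes and 6.49% of all genes. Its difference was 0.22 ± 0.07 (limma, adjusted p = 0.366), and 0.16 ± 0.10 in 5-day array 4 alone. Spcs1, a signal peptidase subunit, differed by 0.22 ± 0.09 at 14 days and 0.19 ± 0.09 at 5 days (adjusted p = 0.580 and 0.492), or 0.15 ± 0.08 and 0.12 ± 0.12 without the 4 arrays. With the 4 arrays left out, 18 of the 27 genes were higher at 14 days and 21 at 5 days. Of all genes, 56.5% and 58% were higher in that fit. The medians were 0.03 and 0.12, beside 0.02 and 0.05 over all genes.

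Genes of ER-associated degradation were higher than chow in 18 of 19 at 14 days and 14 of 19 at 5 days. Over all genes 55.2% and 49.5% were higher. None of the 19 was called by limma. Vcp, the ATPase that extracts proteins from the ER membrane, stood at 13.50, 13.42, 13.50 and 13.55 in 14-day arrays 1 to 4, against 13.39, 13.38, 13.34 and 13.39 in chow. Sel1l, a core subunit of the degradation complex, stood at 11.62, 11.52, 11.53 and 11.52 in 14-day arrays, against 11.41 to 11.47 in chow. Both genes lay above chow without overlap, as did 3 of the 19 genes in all and 2.37% of all genes tested. They differed by 0.12 ± 0.04 and 0.11 ± 0.05 (limma, adjusted p = 0.580 and 0.638). The ubiquitin ligase gene Syvn1 differed by 0.15 ± 0.06 (adjusted p = 0.580). At 14 days the median was 0.11 with all arrays, beside 0.02 over all genes. Without the 4 arrays it was 0.11, beside 0.02, and 16 of 19 genes were higher, beside 56.5% of all genes. Vcp and Sel1l then differed by 0.10 ± 0.04 and 0.12 ± 0.05.

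Sensors and regulators of the response were higher in 10 of 12 at 14 days and 8 of 12 at 5 days, beside 55.2% and 49.5% of all genes, with no call by limma and none at an unadjusted p under 0.05. When the 4 arrays were left out, 7 of the 12 were higher at 14 days and 10 at 5 days, beside 56.5% and 58% of all genes. The medians were 0.02 and 0.14, beside 0.02 and 0.05 over all genes. Ern1, which encodes IRE1, stood at 11.84 in 14-day array 4 and at 10.73 to 11.16 in 5-day arrays 1 to 3, against 10.03 to 10.36 in chow and 9.72 to 10.46 in the other HFD arrays. Its differences without the 4 arrays were −0.19 ± 0.17 at 14 days and 0.04 ± 0.25 at 5 days (adjusted p = 0.643 and 0.937). Eif2ak3, which encodes PERK, ranged from 9.81 to 10.33 at 14 days and from 9.71 to 10.08 at 5 days, against 9.67 to 10.03 on chow, with no separation of the groups.

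Targets of ATF4 in the integrated stress response were mixed in direction, higher in 13 of 24 at 14 days and 16 of 24 at 5 days. Over all genes 55.2% and 49.5% were higher. Limma called none of the 24. Chac1, which degrades glutathione, stood at 10.29, 10.73, 10.77 and 10.58 in 5-day arrays 1 to 4, against 11.03, 10.97, 11.27 and 10.74 in chow. Its difference was −0.41 ± 0.14 (limma, adjusted p = 0.382) and −0.42 ± 0.16 without the 4 arrays, and array 3 lay above the lowest chow array. Cth, an enzyme that makes cysteine, stood at 11.94 in 14-day array 4 and 10.49, 10.55, 11.02 and 9.46 in 5-day arrays 1 to 4, against 8.02 to 9.08 in chow. All 5-day arrays of Cth lay above chow, as in 3 of the 24 genes and 6.49% of all genes. Its difference was 1.71 ± 0.63 (limma, adjusted p = 0.403), and 0.79 ± 0.36 without the 4 arrays. Psat1, an enzyme of serine synthesis, differed by 0.29 ± 0.12 at 14 days and 0.25 ± 0.12 at 5 days (adjusted p = 0.581 and 0.510). These were, without the 4 arrays, 0.19 ± 0.08 (limma, adjusted p = 0.410) and 0.02 ± 0.12. In that fit 16 of the 24 genes were higher in each comparison with chow. Of all genes, 56.5% were higher at 14 days and 58% at 5 days.

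Chaperones of the cytosol and mitochondria, which work outside the ER, were higher in 9 of 15 at 14 days and 6 of 15 at 5 days. Over all genes 55.2% and 49.5% were higher. Without the 4 arrays, 8 and 5 of the 15 were higher, beside 56.5% and 58% of all genes. Hsp90aa1, a cytosolic chaperone, stood at 13.25, 13.30, 13.26 and 13.08 in 5-day arrays 1 to 4, against 13.35, 13.65, 13.55 and 13.59 in chow. All 5-day arrays lay below chow, those with and the one without epididymal transcripts, as in 2 of the 15 genes and 4.77% of all genes. The difference was −0.31 ± 0.08 (limma, adjusted p = 0.347). The 14-day arrays of Hsp90aa1, at 13.57, 13.55, 13.37 and 13.35, overlapped chow. They lay above all 5-day arrays, as in 1 of the 15 genes and 0.646% of all genes, by 0.24 ± 0.08 (limma, adjusted p = 0.999).

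**Figure D4:**
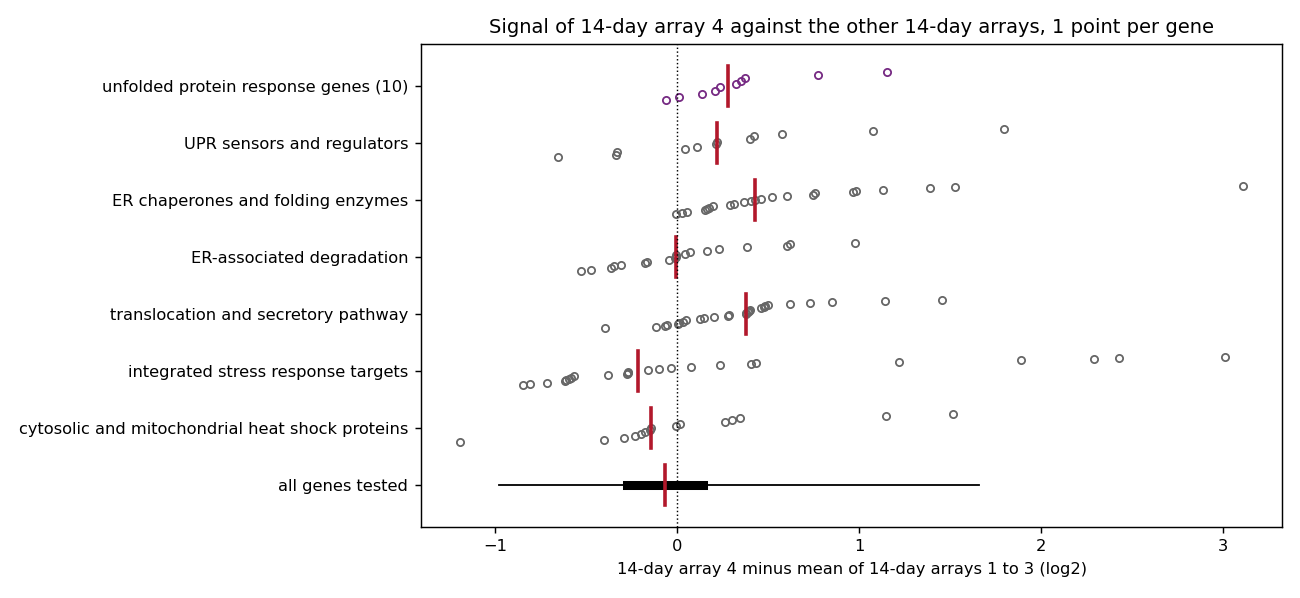
Signal of 14-day array 4 minus the mean of 14-day arrays 1 to 3 (horizontal axis, log2 units), 1 point per gene for the 10 unfolded protein response genes and 6 lists of related genes, with the median in red; the bottom row gives the quartiles (box) and central 95% (line) of all 13311 genes. The medians stand at 0.28 for the 10 genes, 0.43 for other ER chaperones and 0.38 for secretory pathway genes, and at −0.01 for ER-associated degradation, beside −0.07 for all genes.

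Array weights were the one setting tried under which any of the 10 genes was called. With weights estimated for each array, limma called 2979 of 13311 genes (22.4%) at 14 days against chow, 2015 (15.1%) at 5 days against chow and 2212 (16.6%) at 14 against 5 days. It called Pdia4 lower at 14 days against chow (−0.19 ± 0.06, adjusted p = 0.047). It called 3 of the 10 genes at 5 days against chow, Hspa5 (0.35 ± 0.07, adjusted p = 0.0113), Sdf2l1 (0.38 ± 0.09, adjusted p = 0.019) and Xbp1 (−0.32 ± 0.08, adjusted p = 0.017). That fit gave 14-day array 4 a weight of 0.11 and 5-day array 4 a weight of 0.26, the lowest of the 12, so its 5-day mean rests mostly on the arrays with epididymal transcripts. It also called Hspa5 and Atf4 lower at 14 against 5 days (−0.32 ± 0.08 and −0.25 ± 0.07, adjusted p = 0.0219 and 0.0266).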

How the data were processed

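RNA of adipose tissue was measured on single-colour Affymetrix arrays in 12 samples, 4 per diet group. The authors deposited 1 table of 45098 probe sets with values in log2 units, judged from their range of 4.18 to 15.50 and array medians of 8.09 to 8.14. How probes were summarised and arrays normalized is not given in the sources used here, and the values were used as deposited. Array values hold no read counts, so no read depth is given.

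Probe sets were named from the platform annotation: 34945 had 1 gene symbol, 932 several, 9160 none and 61 were controls; 34741 of those with 1 symbol were found by Entrez ID among RefSeq genes (GRCm38.p6). Each gene was represented by its brightest probe set, and genes dimmer than 7.64, the 40th percentile of mean probe set signals, were left out. One model of the 3 groups was fitted in R 4.3.3 with limma 3.58.1 (eBayes with trend), all tests two-sided, and the procedure was tested on simulated data. Every probe set was also fitted alone, over 34945 probe sets.

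The 10 genes and all lists were chosen with earlier results of these data known. The text may name all 10, up to 4 genes of smallest p per list and comparison, the 5 genes most like Hspa5 and marker genes of other tissues; which of these are described by array was decided after their values were seen. Marker lists of 10 tissues and cell types were read as array means; liver markers averaged 8.52 to 13.04 and skeletal muscle markers 7.68 to 11.62 over the arrays, macrophage markers 9.84 to 11.33, mesothelium 9.53 to 10.84 and fibroblast markers 10.91 to 11.71. Alternatives were other scalings, filters, probe set rules and variance models, array weights, fits of 2 groups, a replicate block, each array left out, and the 4 arrays with epididymal transcripts left out.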

Additional observations from a re-analysis of the deposited data

Results flagged for a closer look

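In the 5-day group, Sdf2l1 stood at 7.79 in array 4, and the nearest of the other 3 arrays at 8.26. The gap was 0.892 of the whole range of the group, which set this array apart among 30 checks of a gene in a group. Chance gives about 1 such case in 20 groups. In 14-day array 4 the signal of 9.02 also stood away from the next highest, 8.01, but by a smaller share of the range.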

How the results depend on the processing

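Over 23 alternatives, 629 of 687 values of the 10 genes kept their direction and stayed uncalled. Another 6 became called, all with array weights (given above), and 52 turned sign or fell to 0, all uncalled. Array weights gave 1, 3 and 2 of the 10 genes called for the 14-day and 5-day groups against chow and for 14 against 5 days, with 2979, 2015 and 2212 called among all genes, against 0 of each without weights on all 12 arrays. At 5 days against chow, 213 genes were called when only those 2 groups were fitted, 109 without the 4 arrays with epididymal transcripts, and 0 to 123 as single arrays were left out, with 123 without 14-day array 4 and 1 without 14-day array 2. At 14 days against chow, leaving out single arrays gave 0 to 20, with 20 without 14-day array 2 and 2 without 14-day array 4. Outside array weights, none of the 10 genes was called under any of these alternatives. Signs turned, or a difference fell to 0, as follows. Without the 4 arrays, values were −0.047 (Hsp90b1), −0.0022 (Herpud1) and −0.030 (Sdf2l1) at 14 days, 0.13 (Ddit3) and −0.11 (Sdf2l1) at 5 days, and 0.0063 (Hspa5), −0.17 (Atf6), −0.26 (Herpud1) and 0.083 (Sdf2l1) at 14 against 5 days. With the mean of all probe sets, they were −0.023 (Hsp90b1) and 0.018 (Atf4) at 14 days, −0.0051 (Atf4) at 5 days, and 0.023 (Atf4) and 0.00013 (Ddit3) at 14 against 5 days. Centring arrays on their medians gave 0.01 (Atf4, 14 days) and 0 (Dnajb9, 5 days), quantile normalization −0.026 (Hsp90b1, 14 days) and 0.0019 (Ddit3, 14 against 5 days), and array weights −0.015 (Dnajb9, 14 days), −0.00086 (Dnajb9) and −0.0099 (Herpud1, both 14 against 5 days). Leaving out single arrays gave, at 14 days, −0.047 to 0.093 (Hsp90b1), −0.064 to 0.080 (Atf4), −0.12 to 0.0033 (Ddit3), −0.0022 to 0.16 (Herpud1) and −0.030 to 0.41 (Sdf2l1). At 5 days it gave −0.12 to 0.017 (Hsp90b1) and −0.061 to 0.0094 (Dnajb9). At 14 against 5 days it gave −0.26 to 0.029 (Hspa5), −0.13 to 0.014 (Pdia4), −0.029 to 0.050 (Atf6), −0.076 to 0.054 (Ddit3), −0.069 to 0.094 (Herpud1) and −0.29 to 0.15 (Sdf2l1). The cause was not tested. Samples share only a replicate number. Once the group mean of each gene was subtracted, what remained in same-numbered samples of different groups correlated at −0.73 to 0.41. The signals themselves correlated at 0.956 to 0.997 between any arrays. The fit with a replicate block called 0 of the 10 genes and 0 of all genes in each comparison. It gave adjusted p = 0.706 for Hspa5 and 0.563 for Xbp1 at 5 days (limma).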
